A study of Mus musculus with 104 samples.

Results

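Bone marrow-derived macrophages (BMDMs) are macrophages grown in culture from bone marrow, and the cells described here carried a deletion of Smad4, the partner that receptor-activated SMAD proteins share in TGF-beta signalling. The comparison set 2 libraries of these cells exposed to the Notch ligand DLL4 and to DAPT against 2 libraries exposed to DLL4 without DAPT, which is 4 of the 104 libraries in the series. DAPT is a small molecule that inhibits gamma-secretase, the protease through which Notch receptors signal. They were taken by their titles in the table of Smad4 BMDMs, and all 10267 genes of that table with at least 4 TPM (expression scaled for transcript length and library size) in 2 or more of its 20 libraries were tested. The comparison asks which part of the response to DLL4 is lost when gamma-secretase is blocked in macrophages that lack Smad4.

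The series follows how monocytes turn into liver macrophages and measures RNA in mouse monocytes, liver macrophages and cultured bone marrow cells. Every BMDM group used here was cultured for 4 days. The Smad4 knockout groups carry the strain label Smad4 flox/flox Clec4f-cre +/-, while the design text of the series names LysM-cre for BMDMs without Smad4, and the deposited values do not settle which driver was present. Clec4f is a gene of Kupffer cells, which are the macrophages that live in liver sinusoids, and LysM-cre is active across myeloid cells. The knockout groups were untreated, given DLL4 for 24 h, or given DLL4 and DAPT for 24 h each. Control groups with the same 3 treatments are labelled Smad4 flox/flox, with no Cre named. Other libraries used for comparison were C57BL/6J BMDMs left untreated or given DLL4 for 24 h, and liver macrophages taken 24 h after diphtheria toxin. The liver macrophages came with or without LY411575, another inhibitor of gamma-secretase (2 control and 3 treated libraries). They are labelled C57BL/6J where the design text names Clec4f-Cre/DTR mice, and their column names give female, fasted mice. All other groups held 2 libraries. Doses, and groups given DAPT without DLL4 or a vehicle, were not analysed here, so an action of DAPT apart from DLL4 cannot be told apart from the loss of the DLL4 response.

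Notch receptors are cut when they meet a ligand such as DLL4 on a neighbouring cell or surface. A sheddase of the ADAM family makes the first cut, and gamma-secretase, a protease within the membrane, then frees the intracellular domain. That domain enters the nucleus, joins the DNA-binding protein RBPJ and a Mastermind co-activator, and turns on genes such as Hes1. In the liver, DLL4 on sinusoidal endothelium is one of the signals that give incoming monocytes the features of Kupffer cells. Gamma-secretase also cuts many other membrane proteins, among them APP, CD44 and CD74.

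Smad4 was at 8.52 to 11.3 TPM (median 10.0) in the 10 knockout libraries of the table and at 20.4 to 26.5 TPM (median 23.9) in its 10 control libraries, with no overlap. Because exons were pooled into 1 value for each gene, the remaining signal is no measure of how complete the deletion was. The 4 libraries compared held 8378095 to 15448596 reads, as recovered from the TPM, and the DLL4 plus DAPT replicate 1 was the shallowest. Nothing in the labels says whether replicates came from separate mice or cultures. The p-values therefore measure only the spread between replicates over all 20 libraries of the table, which may be technical. Of its 10 groups, the control TGF-beta replicates differed most from each other. Of 9 macrophage markers, 0 were called between the 2 groups, and their summed level was 12240 to 12290 TPM with DLL4 and 12670 to 12860 TPM with DLL4 and DAPT. In bulk RNA, fewer cells of a kind and less RNA per cell cannot be told apart.

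More genes were called lower than higher when DAPT was added to DLL4. A gene was called when its Benjamini-Hochberg adjusted p in limma was below 0.05 and its difference was at least 2-fold on the log2(TPM + 1) scale, a scale that understates the change of genes with low values. By this rule 146 genes were lower (1.42% of those tested) and 41 were higher (0.399%). Genes that reached the 4 TPM minimum only with DLL4 could hardly be called higher with DAPT. Their lower calls add to the lower count by construction. In both genotypes, Dnase1l3, Apol7c, Pxdc1, Hes1, Asb2, Cyp2s1, Adgre4 and Cd244 were below 4 TPM untreated and with DLL4 and DAPT. Without the fold minimum, 1067 genes were lower (10.4%) and 1654 were higher (16.1%), so most differences toward higher levels were below 2-fold. The median over all genes tested was 0.03. Among the calls were 6 lower and 8 higher entries of small RNAs, which are not described further.

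**Figure D1:**
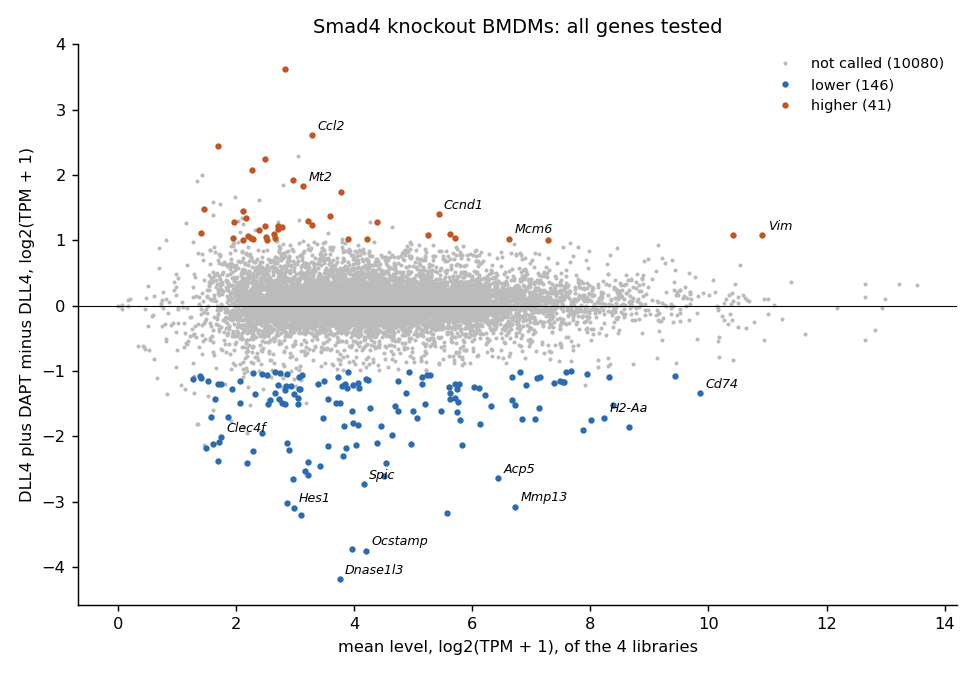
Each point is 1 of the 10267 genes tested. The horizontal axis is the mean level of the 4 libraries as log2(TPM + 1), and the vertical axis is the difference DLL4 plus DAPT minus DLL4 on the same scale. The 146 lower genes reach -4.19 (Dnase1l3), and most of the 41 higher genes lie near the 2-fold line, with Ccl2 at 2.61.

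Of the pathway itself, 2 target genes were called and 0 genes of the receptors, ligands, gamma-secretase, nuclear partners or regulators. Hes1, a transcriptional repressor and the best known target of Notch, lies on chr16:30065357-30067796 (mm10). It was at 13.0 TPM in both DLL4 libraries and at 0.865 and 0.441 TPM in the DLL4 plus DAPT libraries, beside 0.256 and 0.647 TPM in untreated cells. Its level with DAPT therefore lay in the range of untreated cells or just above it and far from DLL4 alone. The difference was -3.10 ± 0.18 (SE) on the log2(TPM + 1) scale, with an adjusted p in limma of 2.73e-08.

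Of 16 genes listed as Notch targets 8 were expressed highly enough to test. Hes1 was called lower and Ccnd1, which encodes cyclin D1, was called higher, against 1.42% and 0.399% of all genes. In both genotypes Hes1 reached the 4 TPM minimum with DLL4 but not untreated or with DLL4 and DAPT. A call toward higher was therefore hardly open to Hes1. The list's median was 0.00. Nrarp, a feedback inhibitor of Notch, was low throughout, at 0.563 and 0.506 TPM with DLL4 and 0 in both DLL4 plus DAPT libraries, and its difference of -0.62 ± 0.20 passed the adjusted p (0.039 in limma) without the fold minimum. Hes5, Hey1, Hey2, Heyl, Dtx1, Notch3, Ptcra and Il2ra were below the minimum for testing. Ptcra, the invariant partner of the T cell receptor beta chain in thymocytes, was at 0.667 and 0.582 TPM with DLL4 and at 0 in both libraries with DAPT.

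Among the 4 receptor genes, Notch1 was at 30.4 and 26.6 TPM with DLL4 and 19.0 and 20.7 TPM with DAPT, without overlap. Its difference of -0.50 ± 0.11 had an adjusted p of 0.00378 in limma but stayed below 2-fold. Notch2, at 50.4 and 45.9 TPM with DLL4 and 49.0 and 49.8 TPM with DAPT, gave 0.04 ± 0.08. Jag1, a Notch ligand and the only one of 5 ligand genes with enough signal to test, gave 0.43 ± 0.10 (adjusted p 0.00613, limma).

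None of 9 genes of gamma-secretase and the sheddases was called, and their median was -0.06. Psen2, which encodes a catalytic subunit, was higher by 0.40 ± 0.07 (adjusted p 0.000741, limma). Aph1b and Aph1c, which encode versions of the scaffold subunit and are similar enough in sequence to share reads, gave -0.64 ± 0.11 and -0.51 ± 0.17. The 8 nuclear partners, Rbpj and the Mastermind genes among them, had a median of -0.06 with 0 called. The 14 sugar modifiers and regulators had a median of 0.02 with 0 called. Within that list Dtx4, a Deltex gene, gave -0.62 ± 0.08, and Itch, a ubiquitin ligase that acts on Notch, gave -0.44 ± 0.07.

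Substrates of gamma-secretase other than Notch were listed as well, since DAPT also blocks their cutting. Of 13 tested, 3 were lower and 0 higher, against 1.42% and 0.399% of all genes, and the median was 0.00. The lower ones were Sorl1, a sorting receptor, at 54.9 and 52.0 TPM with DLL4 and 18.1 and 18.4 TPM with DAPT (-1.5 ± 0.08), Il1r2, the decoy receptor for interleukin 1 (-1.15 ± 0.20), and Cd74. Among the untreated, DLL4 and DLL4 plus DAPT groups of both genotypes, Il1r2 reached the 4 TPM minimum only in a control DLL4 library (4.22 TPM). A call toward higher was therefore hardly open to Il1r2. App, which encodes the amyloid precursor, was higher by 0.23 ± 0.04, with an adjusted p of 0.000649 in limma.

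The gene with the largest drop was Dnase1l3, a secreted nuclease made by macrophages and dendritic cells, on chr14:7965190-7994182. It stood at 24.0 and 25.0 TPM with DLL4, at 0.423 and 0.374 TPM with DLL4 and DAPT, and at 0.251 and 0.253 TPM untreated. The DAPT libraries were thus close to the untreated ones, and the difference from DLL4 was -4.19 ± 0.10 (adjusted p 6.44e-12, limma). Ocstamp, needed for the fusion of osteoclast precursors, fell from 34.0 and 32.5 TPM to 1.36 and 1.74 TPM (-3.75 ± 0.22), which lay below its 3.75 and 4.43 TPM in untreated cells. Abcg3, an ABC transporter gene of rodents, fell from 85.9 and 84.0 TPM to 8.91 and 8.10 TPM (-3.18 ± 0.11), still above the 4.51 and 4.44 TPM of untreated cells.

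The other genes among the 15 largest drops covered several roles. Matrix and adhesion genes were Mmp13, a collagenase, which fell from 189 and 187 TPM to 19.8 and 23.1 TPM, below its untreated 36.7 and 46.1 TPM, and Itga9, an integrin subunit, which gave -2.41 ± 0.09. Acp5, the tartrate-resistant acid phosphatase of osteoclasts and some macrophages, fell from 152 and 146 TPM to 23.0 and 23.1 TPM, and untreated cells held 24.0 and 23.6 TPM. Cell surface genes were Adgre4 (-2.53 ± 0.14), an adhesion receptor of macrophages, and Cd244 (-2.46 ± 0.14), a SLAM family receptor. The rest were Apol7c (-3.72 ± 0.25), Pxdc1 (-3.21 ± 0.21), Asb2 (-3.03 ± 0.16), Spic (-2.73 ± 0.24), Cyp2s1 (-2.66 ± 0.17) and Spint1, a protease inhibitor (-2.60 ± 0.14). For all 15, adjusted p-values in limma ran up to 1.86e-06, the value of Spic.

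**Figure D2:**
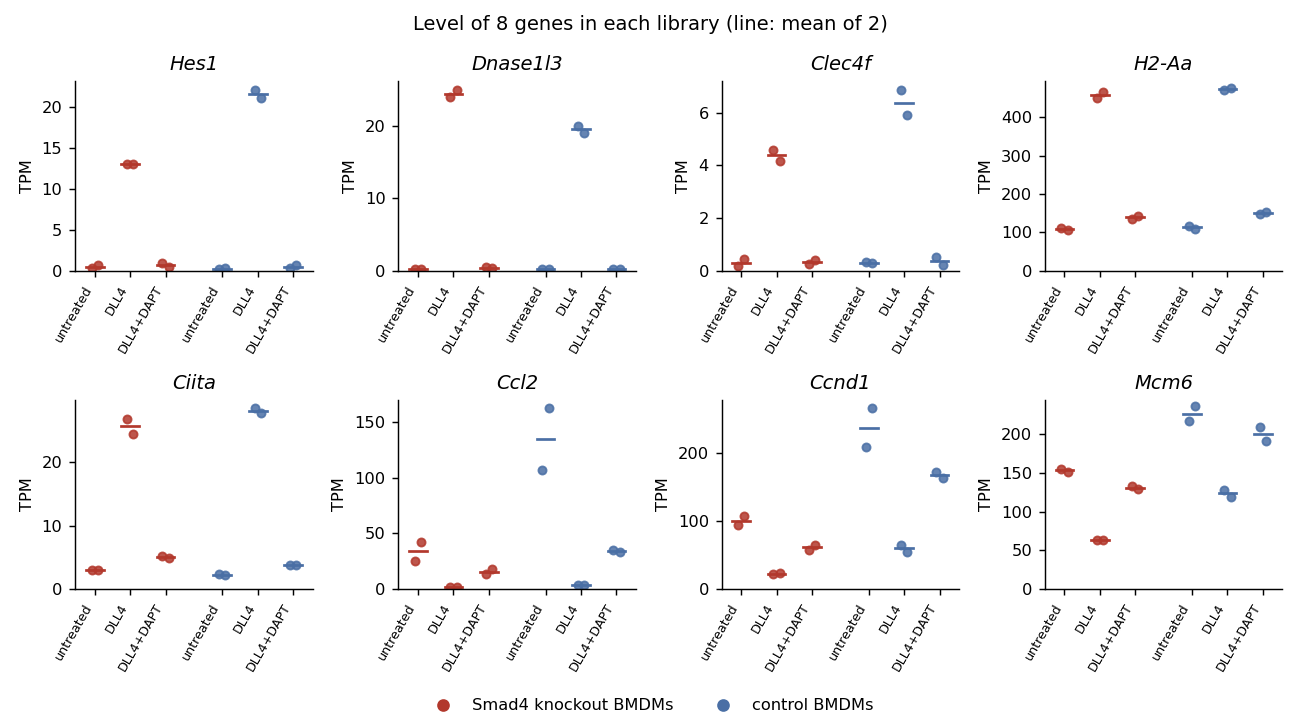
Level in TPM (vertical axes, each starting at 0) of 8 genes in single libraries, with points for libraries and lines for the mean of 2. In Smad4 knockout BMDMs, Hes1, Dnase1l3, Clec4f, H2-Aa and Ciita were high with DLL4 and near the untreated level with DLL4 and DAPT, whereas Ccl2, Ccnd1 and Mcm6 were low with DLL4 and higher with DAPT.

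Genes of Kupffer cell identity fell in part. Of 21 listed genes 17 were tested, 7 were lower (1.42% of all genes were) and 0 higher, and the list's median was -0.58 against 0.03 over all genes. Clec4f, a C-type lectin that marks Kupffer cells, fell from 4.59 and 4.16 TPM to 0.261 and 0.400 TPM, beside 0.155 and 0.423 TPM untreated. Timd4, a receptor for phosphatidylserine on dying cells, fell from 3.38 and 3.65 TPM to 0.289 and 0.491 TPM. Both were thus at the untreated level with DAPT, though their DLL4 levels were also low in absolute terms. Among the untreated, DLL4 and DLL4 plus DAPT groups of both genotypes, Clec4f, Timd4 and Dnase1l3 reached the 4 TPM minimum only with DLL4. Genes that enter the test this way could hardly be called higher with DAPT, so their lower calls add to the 7 by construction.

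Spic, a transcription factor of macrophages that recycle red cell iron, fell from 29.94 and 30.03 TPM to 3.11 and 4.31 TPM. Slc40a1, the iron exporter ferroportin, fell from 629 and 628 TPM to 175 and 169 TPM (-1.86 ± 0.10), and stayed above the 104 and 105 TPM of untreated cells, with an adjusted p of 0.00133 against untreated in limma. Nr1h3, which encodes the sterol-sensing receptor LXR-alpha, fell from 39.5 and 39.1 TPM to 11.1 and 13.3 TPM (-1.62 ± 0.15). Il18bp, which binds interleukin 18, was lower by -1.21 ± 0.16, and Dnase1l3 completed the 7.

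The other members of the list did not move as far or moved the other way. Marco, a scavenger receptor, gave -0.46 ± 0.13 and Fcna, a ficolin, gave -0.82 ± 0.13, each past the adjusted p but below 2-fold. Folr2, a folate receptor, was higher by 0.33 ± 0.05. Id3, a transcriptional regulator that Kupffer cells depend on, was at 137 and 131 TPM with DLL4 and 138 and 135 TPM with DAPT, a difference of 0.03 ± 0.07 (adjusted p 0.76, limma). Cd5l (0.31 ± 0.20), Cd163 (-0.15 ± 0.15), Hmox1 (-0.13 ± 0.11) and Vsig4 (-0.16 ± 0.26) did not pass the test.

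Among 15 tested targets of LXR 1 was called lower, Nr1h3 itself, against 1.42% of all genes, and the median was -0.08. The cholesterol transporters Abca1 (-0.51 ± 0.17) and Abcg1 (-0.85 ± 0.26), the LDL receptor regulator Mylip (-0.77 ± 0.13) and the engulfment receptor Mertk (-0.81 ± 0.16) passed the adjusted p in limma without reaching 2-fold. Of 20 genes of cholesterol synthesis, 0 were called and the median was 0.01. Tgfbr1, a receptor for TGF-beta, was the only called gene of 15 targets of TGF-beta and BMP, at 138 and 136 TPM with DLL4 and 63.2 and 64.1 TPM with DAPT. Smad7, an inhibitory SMAD, gave -0.70 ± 0.09 in these cells without Smad4.

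Most genes of MHC class II antigen presentation were lower at the RNA level. Of 9 genes listed and tested, 8 were lower and 0 higher, against 1.42% and 0.399% of all genes, and the median difference was -1.34. In the untreated, DLL4 and DLL4 plus DAPT groups of both genotypes, H2-DMb2 and H2-Oa passed the 4 TPM minimum only with DLL4. Each did so in a single control library, at 6 TPM (H2-DMb2) and 4.92 TPM (H2-Oa). A call toward higher with DAPT was therefore hardly open to either gene in either genotype. The lower call of H2-DMb2 adds to the 8 by construction. Ciita, the co-activator that switches class II genes on, fell from 26.7 and 24.5 TPM to 5.25 and 4.91 TPM (-2.13 ± 0.08), beside 3.06 and 2.94 TPM in untreated cells. H2-Aa, the alpha chain of I-A, fell from 450 and 466 TPM to 135 and 143 TPM (-1.71 ± 0.07), and H2-Ab1, its beta chain, from 370 and 372 TPM to 97.6 and 99.6 TPM (-1.90 ± 0.08). In both pairs the DAPT libraries were far below DLL4 and slightly above untreated cells, where H2-Aa stood at 111.8 and 105.5 TPM.

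H2-Eb1, the beta chain of I-E, gave -1.56 ± 0.06, and the invariant chain Cd74 fell from 1354 and 1310 TPM to 530 and 524 TPM (-1.34 ± 0.05). H2-DMa (-1.34 ± 0.09) and H2-DMb1 (-1.27 ± 0.09) encode the chaperone that loads peptide. H2-DMb2 was lower as well, at 3.06 and 3.94 TPM against 0.601 and 1.36 TPM, but it is a near copy of H2-DMb1 and their reads may be split. H2-Oa, a subunit of the chaperone's inhibitor, gave -0.36 ± 0.28 and an adjusted p of 0.364 in limma. Against untreated cells, the list's median was 0.35 for DLL4 plus DAPT and 1.71 for DLL4 alone, 2 comparisons that share the untreated libraries, and 0 members were called in the first. At the adjusted p in limma alone, DLL4 plus DAPT stayed above untreated for Ciita (0.00123), Cd74 (0.00196), H2-Eb1 (0.00484), H2-Ab1 (0.0108) and H2-Aa (0.0119). The other members did not pass, and 227 of all 10267 genes passed in either direction. The co-stimulatory ligand gene Cd86 fell from 17.7 and 18.8 TPM to 3.15 and 3.57 TPM (-2.14 ± 0.09). It is outside the list and was chosen after its values were seen.

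Dendritic cells also make class II at high level. The summed level of 9 dendritic cell markers was 136.2 to 136.6 TPM with DLL4 and 82.2 to 83.6 TPM with DAPT, of which Itgax, the integrin CD11c that many macrophages carry too, made up most, at 122 and 123 TPM with DLL4 and 71.2 TPM in both libraries with DAPT. The defining markers Xcr1, at 0.191 and 0.167 TPM with DLL4, and Zbtb46, at 0.424 and 0.370 TPM, were near 0. Other markers were low but present with DLL4: Flt3 at 1.71 and 1.43 TPM, Ccr7 at 1.99 and 2.55 TPM and Cd209a at 1.67 and 1.89 TPM. With DAPT, Flt3 was at 1.46 and 1.05 TPM, Ccr7 at 1.58 and 1.83 TPM and Cd209a at 0.953 and 1.66 TPM. Xcr1 was then at 0.035 and 0.072 TPM and Zbtb46 at 0.078 and 0.317 TPM. Clec9a was at 0.778 and 0.594 TPM with DLL4 and 0.285 and 0.517 TPM with DAPT. These low genes were not tested. Of the 3 markers tested 0 were called (1 by limma-voom on recovered reads), and 2 were lower at the adjusted p in limma alone. The part of dendritic cells in the class II result was not tested.

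The promoters of class II genes are shown here because 8 of the 9 genes were lower. Class II promoters are known to carry a Y box, an inverted CCAAT element bound by NF-Y, and capitals mark its core GATTGG on either strand. This motif was chosen after the class II values were seen. The sequences are RefSeq windows on GRCm38.p6, from 250 bases before to 50 after a start, for H2-Aa (chr17:34287774-34288073, minus strand), H2-Eb1 (chr17:34305617-34305916, plus strand), H2-DMb1 (chr17:34152941-34153240, plus strand) and H2-DMb2 (chr17:34144999-34145298, plus strand), written 5′ to 3′ along the gene.
H2-Aa: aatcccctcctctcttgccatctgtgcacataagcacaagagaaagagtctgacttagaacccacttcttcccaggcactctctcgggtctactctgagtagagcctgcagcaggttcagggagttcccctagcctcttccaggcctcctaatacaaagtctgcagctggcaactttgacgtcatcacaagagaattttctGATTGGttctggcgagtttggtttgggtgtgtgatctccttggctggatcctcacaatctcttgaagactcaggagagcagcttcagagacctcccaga
H2-Eb1: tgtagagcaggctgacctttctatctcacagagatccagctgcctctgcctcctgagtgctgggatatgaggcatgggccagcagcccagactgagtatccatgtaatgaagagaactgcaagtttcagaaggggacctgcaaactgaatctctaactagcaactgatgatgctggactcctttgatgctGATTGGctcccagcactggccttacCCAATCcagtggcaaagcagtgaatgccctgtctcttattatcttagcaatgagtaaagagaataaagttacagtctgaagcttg
H2-DMb1: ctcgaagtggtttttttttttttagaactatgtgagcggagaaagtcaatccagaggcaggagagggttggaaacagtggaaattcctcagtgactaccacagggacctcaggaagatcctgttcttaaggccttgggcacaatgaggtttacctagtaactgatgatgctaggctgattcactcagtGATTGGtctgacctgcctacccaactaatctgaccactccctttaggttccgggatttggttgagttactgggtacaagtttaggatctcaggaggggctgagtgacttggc
H2-DMb2: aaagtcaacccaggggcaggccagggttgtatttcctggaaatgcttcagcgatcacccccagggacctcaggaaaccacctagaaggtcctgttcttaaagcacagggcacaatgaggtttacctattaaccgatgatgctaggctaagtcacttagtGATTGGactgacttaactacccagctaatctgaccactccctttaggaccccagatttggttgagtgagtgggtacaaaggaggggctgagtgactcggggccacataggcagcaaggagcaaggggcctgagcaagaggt

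The core GATTGG began 49 bases before the start in H2-Aa, 60 in H2-Eb1, 62 in H2-DMb1 and 91 in H2-DMb2, each time on the strand of the gene. H2-Eb1 held a further copy on the opposite strand. Of 6 class II genes with a window near the deposited start, 5 held the core, against 21.5% of 7659 tested genes with such a window and 16.1% of 32544 RefSeq windows. The fifth was H2-Oa, which was not called in knockout cells, so the letters were present in a gene that did not pass the test too. In control cells all 9 class II genes were called lower with DAPT, H2-Oa by -1.07 ± 0.28 (adjusted p 0.0106, limma). The windows of all 104 lower genes that have one held the core in 15.4%. The RBPJ core GTGGGAA, searched on either strand without regard to the Y box, was in 0 of the 6 class II windows, in 7 of those 104 windows (6.73%), in 3 of 25 windows of higher genes (12%) and in 5.6% of tested genes. Among the 15 largest drops with a window 1 of 10 held it, Pxdc1 (chr13:34652632-34652931, minus strand), with the motif in capitals.
Pxdc1: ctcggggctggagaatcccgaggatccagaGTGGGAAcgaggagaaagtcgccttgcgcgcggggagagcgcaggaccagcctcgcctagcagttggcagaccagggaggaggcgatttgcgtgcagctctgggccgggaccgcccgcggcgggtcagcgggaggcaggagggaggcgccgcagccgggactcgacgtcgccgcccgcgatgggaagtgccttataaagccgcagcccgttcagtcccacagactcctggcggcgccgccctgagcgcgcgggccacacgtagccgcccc

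Lists with no called gene were complement (9 tested, median -0.12), lipid-associated macrophage genes (14 tested, 0.18), hypoxia and glycolysis (13 tested, 0.19) and alternative activation (5 tested, 0.02). At the adjusted p alone, complement had 4 lower and 1 higher, and lipid-associated genes 1 lower and 7 higher. Hypoxia and glycolysis had 1 lower and 5 higher, and alternative activation 1 lower and 0 higher. Over all genes, 10.4% were lower and 16.1% higher at that threshold. Complement summed to 8830 to 8842 TPM with DLL4, 6525 to 6563 TPM with DAPT and 5846 to 5898 TPM untreated. Markers of neutrophils summed to 3086 to 3689 TPM with DLL4 and 3341 to 3476 TPM with DAPT, and 0 of 10 were called. Those of lymphocytes, mast cells, fibroblasts and endothelium had 0 called of 7 tested (limma-voom called 2 endothelial ones), and endothelial markers summed to 7.97 to 9.29 TPM with DLL4 and 4.24 to 5.76 TPM with DAPT. None of 6 erythroid markers was high enough to test.

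**Figure D3:**
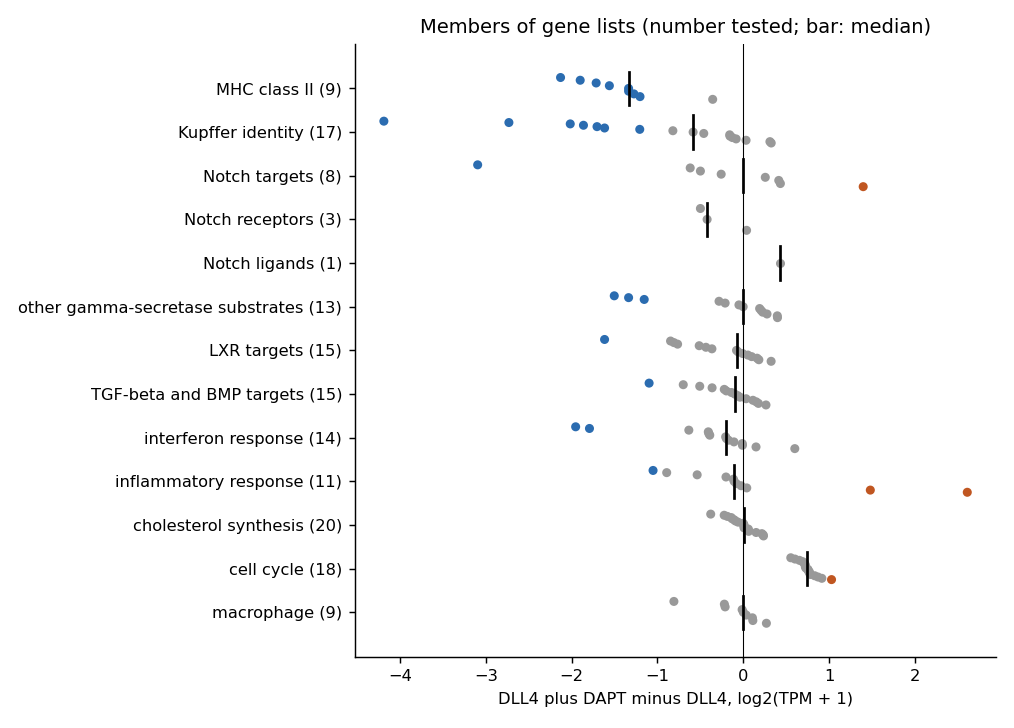
Difference DLL4 plus DAPT minus DLL4 on the log2(TPM + 1) scale for tested members of 13 gene lists. Points are genes, blue where called lower, orange where called higher and grey otherwise, and bars are medians. MHC class II lies at a median of -1.34 and the cell cycle at 0.74, while cholesterol synthesis and macrophage markers centre near 0.

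Genes of immune signalling were called in both directions. Among 11 tested genes of the inflammatory response, Ccl2 and Ccl7 were higher and Il1b was lower, and the median was -0.11. Over all genes 0.399% were higher and 1.42% lower. Ccl2, the chemokine that draws monocytes through CCR2, is on chr11:82035577-82037452. It was at 1.59 and 1.86 TPM with DLL4, at 13.8 and 17.6 TPM with DLL4 and DAPT, and at 25.6 and 41.9 TPM untreated. The DAPT libraries lay between the other groups without overlap, and the difference from DLL4 was 2.61 ± 0.53 (adjusted p 0.00227, limma). Ccl7, a related chemokine gene, rose from 0.429 and 0.468 TPM to 3.15 and 2.94 TPM (1.48 ± 0.40), but leaving out any 1 of the 4 libraries left 1 higher gene in the list, Ccl2. Il1b, a fever-inducing cytokine, fell from 9.67 and 7.84 TPM to 3.50 and 3.89 TPM (-1.05 ± 0.23), a call that was lost without the DLL4 replicate 1 or without the DLL4 plus DAPT replicate 1. Tnf differed by -0.11 ± 0.11 and Il10 by -0.11 ± 0.20.

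Of 14 tested interferon response genes, 2 were lower and 0 higher, against 1.42% and 0.399% of all genes, and the median was -0.20. The lower ones were Cxcl10, a chemokine for T cells (9.03 and 6.03 TPM with DLL4, 0.714 and 1.75 TPM with DAPT), and Gbp2, a guanylate-binding protein (24.5 and 22.2 TPM with DLL4, 6.14 and 5.91 TPM with DAPT). Among the untreated, DLL4 and DLL4 plus DAPT groups of both genotypes, Cxcl10 reached the 4 TPM minimum only in the knockout DLL4 libraries. A call toward higher was therefore hardly open to Cxcl10. Below 2-fold, the antiviral gene Mx1 was lower (-0.39 ± 0.12, adjusted p 0.0287 in limma) and Usp18, a brake on interferon signalling, was higher (0.60 ± 0.18, adjusted p 0.0244). Ifit1 (-0.41 ± 0.19), Rsad2 (-0.20 ± 0.16) and Irf7 (-0.01 ± 0.20) did not pass the test.

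Monocyte genes were called in part. Of 10 tested genes of nonclassical monocytes, the patrolling kind, 3 were lower, against 1.42% of all genes, with a median of -0.71. At the adjusted p alone 6 were lower and 2 were higher, the scavenger receptor gene Cd36 (0.33 ± 0.06) and Spn (0.28 ± 0.07). The 3 called were Nr4a1, the transcription factor this lineage depends on (-1.06 ± 0.14), Itgal, an integrin subunit (-1.52 ± 0.07), and Treml4 (-1.60 ± 0.13). Of 11 genes of classical monocytes 1 was called, S100a4, which was higher, against 0.399% of all genes. The median was -0.05, and Ly6c2 (0.29 ± 0.11) and Ccr2 (-0.16 ± 0.10) did not pass the test.

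Among 5 tested osteoclast markers, Acp5 and Ocstamp were lower, against 1.42% of all genes. At the adjusted p alone 3 were lower and 0 higher, against 10.4% and 16.1% of all genes. The list's summed level was 243.9 to 251.5 TPM with DLL4, 72.6 to 74.1 TPM with DAPT and 106.4 to 113 TPM untreated. Acp5, at 152 and 146 TPM, made up most of the sum with DLL4, so the drop in the sum largely restates that gene. Ctsk, cathepsin K, differed by 0.12 ± 0.22, and Calcr, the calcitonin receptor of mature osteoclasts, was at 0 in both DLL4 libraries.

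Cell cycle genes rose, mostly by less than 2-fold. All 18 listed and tested genes were higher at the adjusted p in limma alone, against 16.1% of all genes, and 1 of them, Mcm6, passed 2-fold. The median was 0.74 against 0.03 over all genes. The proliferation antigen Mki67 rose from 83.5 and 80.3 TPM with DLL4 to 141 and 142 TPM with DAPT, beside 138 and 127 TPM untreated. Mcm6, a subunit of the replicative helicase, rose from 63.8 and 63.5 TPM to 133 and 129 TPM (1.03 ± 0.16), and untreated cells held 155 and 152 TPM. Pcna, the sliding clamp of DNA replication, rose from 147 and 162 TPM to 256 and 267 TPM, and stayed below 365 and 384 TPM in untreated cells. In each of these 3 genes the DLL4 libraries were the lowest of the knockout groups, without overlap.

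The genes with the largest rises included further parts of this machinery. Uhrf1, which keeps DNA methylation through replication, gave 1.08 ± 0.18, Lig1, a DNA ligase, 1.03 ± 0.12, and Gins1, part of the replicative helicase complex, 1.03 ± 0.14. Ccnd1 on chr7:144929931-144939925 rose from 22.0 and 23.3 TPM to 57.9 and 64.8 TPM (1.4 ± 0.40, adjusted p 0.0187 in limma), beside 94.6 and 107 TPM untreated. Leaving out any 1 of the 4 libraries took its adjusted p to 0.0632 to 0.0915. Its neighbour Oraov1 on chr7:144915100-144930748 rose by 1.02 ± 0.34 and lost its call in the same way. Their annotated ends overlap, and reads from the shared stretch may be counted for either gene.

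Outside the cell cycle, Mt2, a metal-binding metallothionein, rose from 1.54 and 4.55 TPM to 11.9 and 12.9 TPM (1.83 ± 0.26). Vim, the intermediate filament vimentin, rose from 1227 and 1244 TPM to 2651 and 2573 TPM (1.08 ± 0.07), and S100a4, a calcium-binding protein, gave 1.08 ± 0.08. The DAPT libraries of Vim passed its untreated level of 2421 and 2380 TPM, and those of S100a4, at 2021 and 1692 TPM, lay around its 1898 and 1810 TPM. The remaining genes of the 15 were L1cam, a neural adhesion molecule (1.38 ± 0.12), Slc2a6, a sugar transporter (1.30 ± 0.11), Uchl1, a deubiquitinase (1.27 ± 0.12), Ddah2 (1.24 ± 0.16) and Igf2r, the receptor that sorts lysosomal enzymes (1.09 ± 0.11).

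The DLL4 plus DAPT libraries were also set against untreated knockout cells, to ask how far they differed from cells that had neither. DLL4 alone had 227 genes higher (2.21%) and 121 lower (1.18%) than untreated, and DLL4 plus DAPT had 3 higher (0.0292%) and 14 lower (0.136%). The 2 comparisons share the untreated libraries. The 3 higher genes are named here after their values were seen. Clec4n, the gene of dectin-2, a receptor for fungal mannans, was at 113 and 123 TPM with DLL4 and DAPT, at 52.2 and 52.0 TPM untreated and at 382 and 411 TPM with DLL4 (1.16 ± 0.12 against untreated, adjusted p 9.77e-05 in limma). Il1b was the second, at 1.01 ± 0.23. Cd79a, a B cell receptor gene, was the third, at 6.86 and 6.60 TPM against 1.4 and 2.54 TPM, and the summed lymphocyte markers were 90.2 to 94.3 TPM with DAPT and 89.2 to 97.9 TPM untreated.

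The 14 genes below the untreated level showed several patterns, described after their values were seen. Chst11, a chondroitin sulfotransferase, was at 8.99 and 10.8 TPM untreated, at 8.52 and 8.65 TPM with DLL4, and at 2.24 and 2.95 TPM with DLL4 and DAPT. Only the DAPT libraries were low, and the difference from untreated was -1.61 ± 0.12 (adjusted p 8.4e-06, limma). Il1rn, the interleukin 1 receptor antagonist, had the same shape, at 20.1 and 28.0 TPM untreated, 21.0 and 19.0 TPM with DLL4 and 10.3 and 10.3 TPM with DAPT. In control cells Chst11 was likewise lower with DAPT, by -1.42 ± 0.12.

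In the other 12 genes the DLL4 libraries also lay below the untreated ones, without overlap. Spp1, which encodes osteopontin, was at 1976 and 1923 TPM untreated, at 510 and 505 TPM with DLL4 and at 884 and 768 TPM with DLL4 and DAPT (-1.24 ± 0.09 against untreated). Fn1, fibronectin, was at 7.84 and 7.90 TPM untreated and gave 0.10 ± 0.20 between DAPT and DLL4. Serpinb9b, a serine protease inhibitor, was at 13.2 and 14.1 TPM untreated, 2.04 and 2.42 TPM with DLL4 and 6.51 and 5.92 TPM with DAPT, between the other groups. In Rgs1, a regulator of G protein signalling, the DAPT libraries (24.6 and 23.0 TPM) lay below the DLL4 libraries (32.2 and 38.2 TPM) as well, by -0.54 ± 0.14 (adjusted p 0.013, limma). Plau, Tmem26, Isg15 and Igf2bp2 had the same order of levels without passing the test between DAPT and DLL4. The rest were Nes, Efr3b, Nptx1 and Pcdh7. Leaving out single libraries moved this comparison by over 1.5 times. Without the untreated replicate 2 there were 6 lower genes, and without the DLL4 plus DAPT replicate 1 there were 9 lower and 1 higher.

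**Figure D4:**
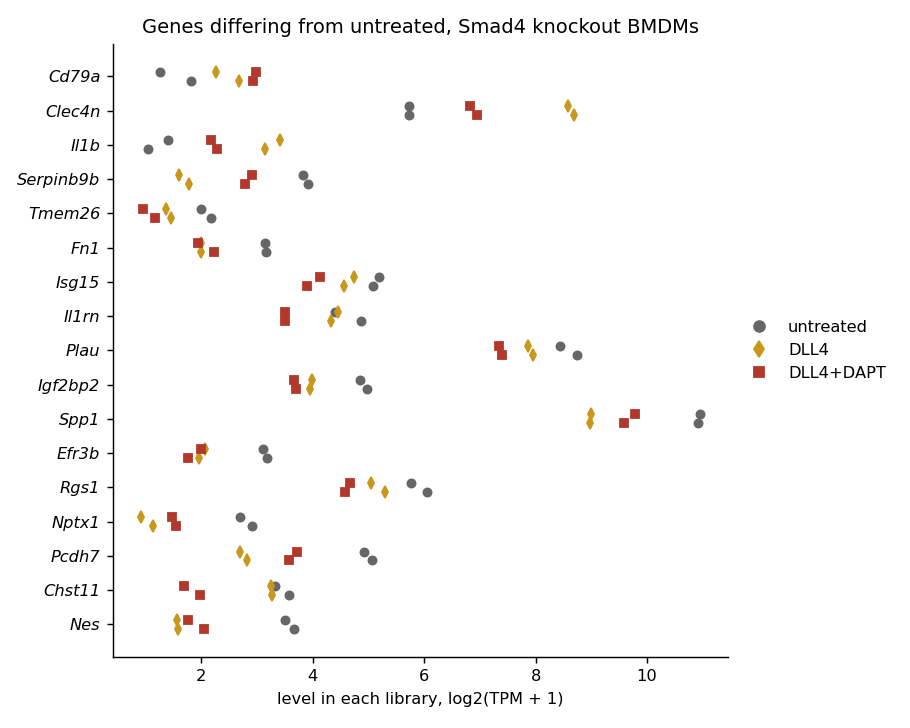
Level as log2(TPM + 1) in each Smad4 knockout library of the 17 genes that differed between DLL4 plus DAPT and untreated cells. Symbols mark untreated, DLL4, and DLL4 plus DAPT libraries, 2 of each. Chst11 is low only in the DAPT libraries, and Spp1 and Fn1 are highest in untreated cells.

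The same contrast in control cells asked whether the response to DAPT depended on Smad4. DAPT lowered 180 genes (1.75%) and raised 35 (0.341%) in control BMDMs. Of the 146 genes lower in knockout cells, 123 were lower in control cells, which is 84.2% of the first list and 68.3% of the second. Of the 41 higher genes 17 were shared, which is 41.5% and 48.6%. The control libraries are separate from the knockout ones.

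In the test of the difference between the responses, limma called 0 of 10267 genes (0%), and 735 had an unadjusted p below 0.05. By limma-voom on recovered reads 0 were called as well. A p that misses the threshold does not show equal responses, and the estimates varied. Among the 187 genes called in knockout cells the difference between responses had a median of 0.06, reached 2-fold for 13 genes and had an unadjusted p below 0.05 for 39. Atp2a3, a calcium pump of the endoplasmic reticulum, was the only gene past an adjusted p of 0.05 (0.024, limma), below 2-fold at 0.62 ± 0.08. It was at 13.7 and 14.3 TPM with DLL4 and 22.0 and 21.6 TPM with DAPT in knockout cells, and at 20.3 and 20.8 TPM and then 21.2 and 19.4 TPM in control cells, so the knockout DLL4 libraries stood alone.

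For Hes1 the knockout response of -3.10 stood beside -3.95 in control cells, where DLL4 alone gave 22.1 and 21.1 TPM. The difference of 0.85 had an adjusted p of 0.553 in limma. Tspan15, a tetraspanin that partners the sheddase ADAM10, went from 3.88 and 3.28 TPM to 0 and 0.030 TPM in knockout cells and from 9.54 and 9.08 TPM to 0.041 and 0.052 TPM in control cells. Its adjusted p for the difference was 0.446, and 0.0126 when no expression minimum was set. Slc2a6 (1.30 in knockout and 0.72 in control cells) and Adgre4 (-2.53 and -3.06) had adjusted p-values of 0.55 and 0.604 for the difference.

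**Figure D5:**
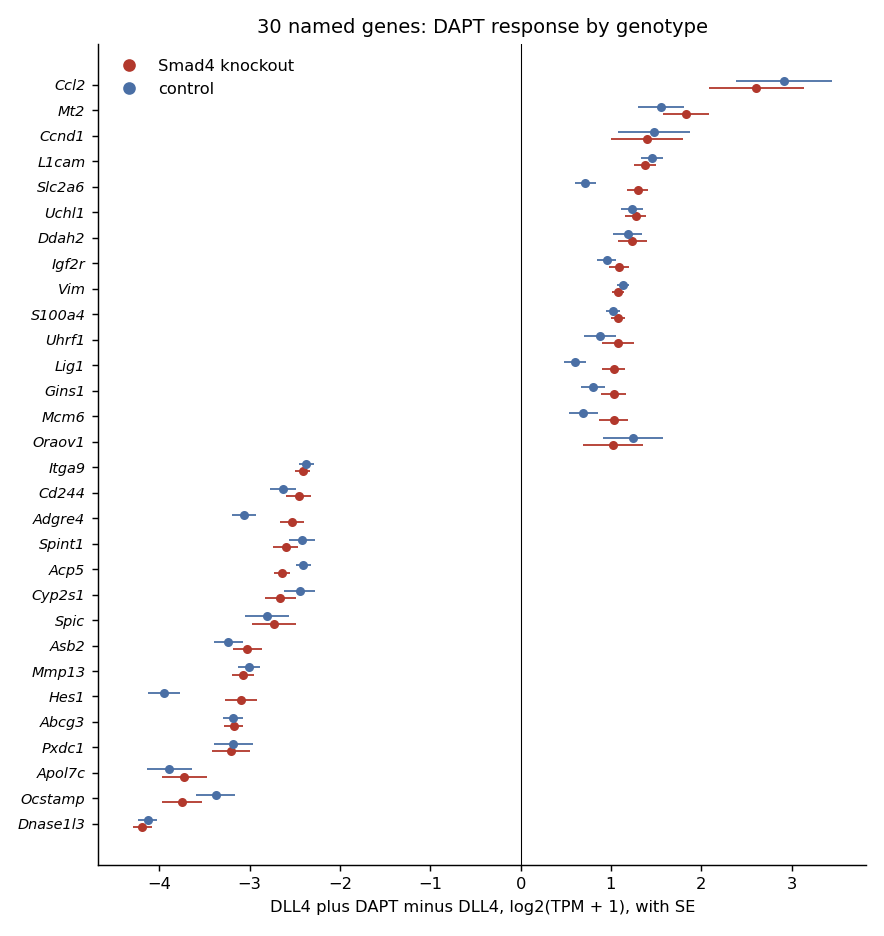
DAPT response on the log2(TPM + 1) scale of the 15 genes with the largest drops and the 15 with the largest rises in Smad4 knockout BMDMs, with the response in control BMDMs beside it. Points are estimates from 2 against 2 libraries and bars are standard errors. Dnase1l3 is at -4.19 in knockout and -4.13 in control cells, and Hes1 at -3.10 and -3.95.

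The genes lowered by DAPT were then looked up in libraries from other experiments. In C57BL/6J BMDMs DLL4 raised 242 genes (2.22% of 10908 tested) and lowered 58 (0.532%). Of 142 DAPT-lowered genes tested in both tables, 119 were higher with DLL4 in C57BL/6J cells, which is 83.8% of the first list, against 2.26% of all genes tested in both tables, and 52.2% of the 228 genes of the second. Of 39 DAPT-raised genes 15 were lower with DLL4 there, which is 38.5% of the first list, against 0.505% of all genes tested in both tables, and 29.4% of the 51 genes of the second.

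LY411575 in liver macrophages raised 369 genes (3.73% of 9885 tested) and lowered 262 (2.65%). Of 120 DAPT-lowered genes tested in both, 53 were lower with LY411575, which is 44.2% of the first list, against 2.39% of all genes tested in both tables, and 24% of the 221 of the second. Among them were Spic (115 TPM in control and 10.3 TPM in LY411575 libraries on average), Slc40a1 (446 and 21.6 TPM), Itga9 (110 and 5.52 TPM) and H2-Aa (2093 and 297 TPM). The estimates of 13 of the 120 genes went the other way with LY411575. Dnase1l3, the gene with the largest drop under DAPT, was at 15.8 TPM on average in both groups of that experiment (-0.01 ± 0.27, adjusted p 0.986 in limma). Of 22 DAPT-raised genes 9 were higher with LY411575, which is 40.9% of the first list, against 3.22% of all genes tested in both tables, and 3.03% of the 297 of the second. The cells, the inhibitor and the exposure differ between the experiments, so sizes were not compared.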

How the data were processed

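RNA-seq values were deposited by the authors as TPM, 1 value for each gene and library. Per the submitters' processing notes, reads were aligned with STAR to mm10 and counted with HOMER, and per the file headers HOMER condensed each gene over its exons. For neither tool is a version given in the sources used here. The TPM of a library summed to 548126 to 572195 in the Smad4 BMDM table. Low TPM were whole multiples of what 1 read is worth (within 0.1 read for values up to 20 reads), so reads were recovered, with totals of 8378095 to 18250507 for each library. PCR duplicates cannot be seen.

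Differences were computed with limma 3.58.1 in R 4.3.3 on log2(TPM + 1), with a mean per group, variances that follow the mean, and all 20 libraries (10 groups of 2) sharing the spread. Genes with at least 4 TPM in 2 libraries were tested, and p-values were adjusted by Benjamini-Hochberg over all of them. Calls needed an adjusted p below 0.05 and 2-fold. The C57BL/6J and LY411575 tables were fitted separately. In the LY411575 fit the spread was shared with libraries of an antibody experiment in the same table, whose column names give male mice. The control library titles of the LY411575 experiment were followed where another label names the drug. Named were Smad4, list members and, in each direction, the 15 calls with the greatest difference among genes whose 2 groups do not overlap and whose higher group averages 10 TPM or more. For the difference between genotypes the limit was 8, and 0 genes qualified. Members and lists were chosen with earlier results of these data known. Alternatives were a pseudocount of 0.25, no expression minimum, quantile normalization, limma-voom on recovered reads, a replicate block, no fold minimum, the compared groups alone, and leaving out single libraries or the control TGF-beta group, the last added after seeing the data. The fits were tested on simulated data. Promoter windows came from RefSeq on GRCm38.p6, the one nearest to the deposited start within 200 bases. Python 3.11.15 drew the figures.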

Additional observations from a re-analysis of the deposited data

How the results depend on the processing

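The count of genes lower with DAPT was 146 and stayed within 1.5 times under all alternatives run except the one without a fold minimum, at 132 (groups compared alone) to 180 (limma-voom on recovered reads). The count of higher genes, 41, was 65 with a pseudocount of 0.25 and 60 with limma-voom, and otherwise 37 to 43, without single libraries 38 to 61 (lower 138 to 156). Dropping the fold minimum gave 1654 higher and 1067 lower, so 60.8% of calls were higher against 21.9%. In that setting the comparison with untreated cells had 227 calls against 17, of which 46.7% were higher, DLL4 alone 1877 and 2478, control cells 1777 and 1227, C57BL/6J cells 1703 and 1416, LY411575 1436 and 1416, and the difference between genotypes 1.

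Against untreated cells, 6 genes were higher with a pseudocount of 0.25 and 7 when the groups were compared alone. Without single libraries 1 to 4 were higher and 6 to 16 lower. The difference between genotypes had 2 calls with no expression minimum, Mir7662 and Tspan15, and C57BL/6J cells had 88 lower genes by limma-voom. The cause was not tested. Of 330 values of named genes in the DAPT comparison, 0 reversed and 14 lost their call. Among them Ccnd1 and Oraov1 lost it without each library, and Mcm6, at 0.98 with quantile normalization, fell just short of 2-fold. The replicate block gave 42 higher and 150 lower, and same-numbered libraries did not deviate together (correlation 0.047).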

Other observations

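Gene families were counted in the comparison of DLL4 plus DAPT with DLL4 in Smad4 knockout BMDMs. They were chosen after their values were seen, so they carry no test of their own, and Gbp2 and some Mcm genes are also members of the lists. Over all genes 1.42% were lower and 0.399% higher. All 6 tested guanylate-binding proteins, GTPases that act on intracellular pathogens, were lower, from Gbp8 (-2.41) and Gbp9 (-2.29) to Gbp5 (-1.28) and Gbp7 (-1.22), with a median of -1.68. Reads may be split between these similar genes. Of 10 tested matrix metalloproteinases 3 were lower. Mmp14, the membrane-bound collagenase, was at 93.9 and 89.2 TPM with DLL4 and 19.7 and 20.7 TPM with DAPT, beside 10.4 and 12.4 TPM untreated, and Mmp9, a gelatinase, differed by -1.48.

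The paired receptor genes Pilra, Pilrb1 and Pilrb2 were lower with a median of -1.61, as were Tmem176a and Tmem176b, neighbouring membrane protein genes, with a median of -1.73. Of 10 tested toll-like receptor genes Tlr1 and Tlr12 were lower, of 6 P2Y nucleotide receptors P2ry12 and P2ry13, and of 4 CC chemokine receptors Ccr1 and Ccr3. Of 9 tested Mcm genes, which encode the replicative helicase and its relatives, 1 was higher by 2-fold and the median was 0.72.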
